A study of Mus musculus with 31 samples.

Results

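The 10 genes described here encode the MHC class I antigen presentation pathway of Panc02 cells, a murine pancreatic adenocarcinoma line. They are the heavy chains H2-K1 and H2-D1, their light chain B2m, the peptide transporter genes Tap1 and Tap2, the loading factor Tapbp, the immunoproteasome subunits Psmb8, Psmb9 and Psmb10, and the transactivator Nlrc5. Members were chosen by gene symbol. Each symbol had 1 row in each of 3 count tables, so that 10 of 55487, 56980 and 56941 genes were followed in 31 samples. All 10 passed the filter on low counts in every table. The first table holds WT Panc02 spheroids in Matrigel kept in control medium (Ctrl, DMEM with 6.5% FBS), in M0-CM from unstimulated bone marrow-derived macrophages or in M1-CM from macrophages given IFNγ and LPS and then washed, with 3 samples each. The second holds WT and Cxcl5 knockout (Cxcl5-/-) cells in 2D or 3D culture without macrophage medium, with 4 groups of 3 samples. The third, the rescue experiment, holds 3D cultures of WT and Cxcl5-/- cells, with 2 samples each, and of Cxcl5-/- cells that overexpress mutant Hif1a (Hif1aOE) or Myc (MycOE), with 3 samples each. Knockout cells were made with a guide RNA vector under puromycin selection, and the overexpressing cells with retroviral vectors that add a mutant, stabilised Hif1a or Myc. The sources used here do not say whether a line is 1 clone, and describe no empty-vector control. They state biological replicates for the experiments in general but do not say which of these libraries came from separate cultures, so p-values may measure only technical spread.

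MHC class I molecules show peptides cut from proteins inside the cell to CD8 T cells. The proteasome makes the peptides, the TAP transporter carries them into the endoplasmic reticulum, tapasin holds empty class I molecules beside TAP, and a heavy chain with beta-2 microglobulin carries the peptide to the cell surface. Interferons, above all IFNγ, raise nearly the whole set, exchange constitutive catalytic subunits of the proteasome for immunoproteasome subunits, and induce NLRC5, which acts with RFX, CREB/ATF and NF-Y proteins at the promoters of class I genes.

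In GENCODE M21 on GRCm38, 7 of the genes lie in the MHC on chromosome 17. H2-K1 is at chr17:33996017-34000347 on the minus strand and H2-D1 at chr17:35262730-35267499 on the plus strand. Psmb9 (chr17:34181987-34187764, minus strand), Tap1 (chr17:34187553-34197225, plus), Psmb8 (chr17:34197721-34201454, plus) and Tap2 (chr17:34203527-34216321, plus) follow each other, and Tapbp is at chr17:33915899-33929292 on the plus strand. B2m is at chr2:122147686-122153083 (plus), Psmb10 at chr8:105935735-105938444 (minus) and Nlrc5 at chr8:94434356-94527272 (plus). Exons of Tap1 and Psmb9 overlap by 212 bases on opposite strands. Antisense transcripts overlap 498 exon bases of Psmb8, 698 of Tap2 and, with the neighbour Zbtb22, 1053 of Tapbp, and a lincRNA on the opposite strand 78 of Nlrc5. The libraries were stranded, but whether strand was used in counting is not stated in the sources used here, so reads in these overlaps could be shared between genes. Of the windows of a read length in the transcripts of H2-D1, 3.55% occurred without change in transcripts of other genes, among them H2-Q1 and H2-T23. That share was 0.905% for H2-K1, at most 0.0517% for Tapbp and 0% for the other 7 genes. Values of H2-D1 and H2-K1 are to that extent uncertain, and the files do not tell how such reads were counted.

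Promoter windows from RefSeq (GRCm38.p6) reach 250 bases before to 50 bases after a start site and were given for 8 of the 10 genes, the exceptions being Tap2 and Nlrc5. They are shown because the heavy chains, B2m and Nlrc5 moved in the same direction in several comparisons, though not in all. In 2D Cxcl5-/- against 2D WT samples, for example, Nlrc5 was higher and H2-K1 was not (log2 fold changes 0.72 and -0.12). Whether the letters bear on any of these changes was not tested. Both strands were searched for GAAANNGAA (interferon response core), GGGNNTTCC (kappa B), TGACG (the CREB/ATF-type core of the X2 box), CCAAT (Y box, bound by NF-Y), TTCNNNGAA (gamma-activated site), CACGTG (E-box) and ACGTG (hypoxia core, which also matches within the E-box). The 2 longer stretches lie before the start sites of H2-K1 (chr17:34000348-34000547, minus strand) and B2m (chr2:122147487-122147685, plus strand), outside annotated exons. Capitals mark the matches.
H2-K1: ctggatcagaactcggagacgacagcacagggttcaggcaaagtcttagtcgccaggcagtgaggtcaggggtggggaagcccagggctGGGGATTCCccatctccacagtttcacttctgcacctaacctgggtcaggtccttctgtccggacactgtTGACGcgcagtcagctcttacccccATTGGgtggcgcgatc
B2m: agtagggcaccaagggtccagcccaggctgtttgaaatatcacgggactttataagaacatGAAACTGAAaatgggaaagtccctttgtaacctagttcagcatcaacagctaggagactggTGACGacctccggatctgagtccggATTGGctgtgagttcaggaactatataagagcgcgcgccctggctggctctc
In H2-K1, H2-D1 and B2m the TGACG core and the inverted Y box stood 25 bases apart, start to start. This spacing was noticed in these windows and then searched for. It was found in 31 of 32851 windows (0.0944%), those of 27 gene symbols, among them the class I gene H2-M3. The element is given next for the 3 members, for H2-K1 at chr17:34000359-34000388, for H2-D1 at chr17:35262993-35263022 (in an exon of H2-D1 as GENCODE annotates it) and for B2m at chr2:122147609-122147638, each on the strand of its gene.
H2-K1: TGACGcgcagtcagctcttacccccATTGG
H2-D1: TGACGcgctggcaggtctcactatcATTGG
B2m: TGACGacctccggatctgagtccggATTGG

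The windows of Tap1 and Psmb9 shared 275 bases, because the start sites of these divergent genes are 226 bases apart, so any match there belongs to both. The TGACG core of that shared stretch is given for Tap1, at chr17:34187458-34187487 on the plus strand, within an exon annotated for Psmb9. For H2-D1 a kappa B match lay further upstream, at chr17:35262913-35262942, also within an exon of H2-D1. Psmb8 held the set's gamma-activated site match, at chr17:34198086-34198115, in an annotated exon of Psmb8.
Tap1: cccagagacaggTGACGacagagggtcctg
H2-D1: gcccagggctGGGGATTCCccatctcctca
Psmb8: agtcctccgctgTTCCCAGAAgatgccccc
The windows of Psmb8 and Psmb10 held neither TGACG nor CCAAT, and that of Tapbp held CCAAT without TGACG. The Psmb10 window held an E-box, with the hypoxia core letters inside it, shown in the 148 bases at chr8:105938445-105938592 (minus strand).
Psmb10: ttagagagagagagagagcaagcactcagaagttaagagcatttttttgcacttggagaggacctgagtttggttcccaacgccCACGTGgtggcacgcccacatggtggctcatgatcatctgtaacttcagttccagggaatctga
Of the 8 windows, 5 held TGACG against 20.8% of all windows, 6 held CCAAT against 37.4%, 2 held the kappa B letters against 5.82%, and 1 each held the interferon response core (8.56% of all windows), the gamma-activated site (8.3%), the E-box (7.15%) and the hypoxia core (19.6%). The TGACG and CCAAT matches of Tap1 and Psmb9 are the same sites in their shared stretch, and each is counted for both windows. All of these matches are letters and not measured binding.

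The total count per sample ran from 41542533 to 78498230. Levels are given as CPM, read counts scaled to library size with TMM factors, and changes as log2FC, the log2 fold change of the first group over the second, with its standard error (SE). Cxcl5 itself did not follow its label in every table. It averaged 47.3 CPM in 2D WT and 34.3 in 2D Cxcl5-/- samples, but 27 in 3D WT and 50.6 in the samples labelled 3D Cxcl5-/- (log2FC 0.91 with SE 0.14, adjusted p = 0.000173 by edgeR), so these are called the libraries labelled 3D Cxcl5-/-. Hif1a averaged 369 CPM in 3D WT and 159.6 in these libraries (log2FC -1.21 with SE 0.10, adjusted p = 4.13e-07), and Myc 35 and 10.4 (log2FC -1.75 with SE 0.12, adjusted p = 8.94e-08). In the rescue table Cxcl5 averaged 66 in WT and 38.4 in Cxcl5-/- samples. A transcript can persist after a guide-directed edit, and the level does not show whether protein was lost. The paper states that immunoblotting with an anti-CXCL5 antibody verified the knockout, and it includes a CXCL5 blot of 3D WT and Cxcl5-/- cells. Whether the blotted cultures are those sequenced is not stated in the sources used here. Myc rose from 21.1 to 490.2 CPM in MycOE, and Hif1a from 139 to 266 in Hif1aOE and to 258 in MycOE. Of the pancreatic epithelial markers, Krt8 and Krt18 were present in every group while Epcam and Cdh1 were at or near 0 (at most 0.609 CPM in any library). The 12 macrophage markers summed to between 28.1 CPM (2D WT replicate 2) and 77.4 CPM (MycOE replicate 1), with 1 to 5 of them above 1 CPM in a library. Most of each sum came from markers of the list other than Ptprc (at most 1.92 CPM) and Adgre1 (at most 0.717 CPM). Which cells those other markers came from was not tested. The highest value of Ptprc, and of Adgre1, was in a rescue WT library. The 2 rescue WT libraries stood apart in this respect: their summed T and NK cell markers were 1.85 to 2.78 CPM against 0.187 to 0.487 in rescue Cxcl5-/- samples, and their summed endothelial markers 2.4 to 3.5 against 0.325 to 0.332.

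Across the 11 groups the pathway was lowest in 2D culture and higher in every group of spheroids, for all members but Psmb8 and Psmb10. Per kilobase of exon, which allows genes to be compared with each other, B2m was highest in every group. In 2D WT samples B2m stood at 301 ± 10.8 CPM per kb (mean ± SD, n = 3), H2-D1 at 66.2 ± 10.3 and H2-K1 at 27.9 ± 2.79, while Psmb9 stood at 0.0672 ± 0.0204. Tapbp (26.3 ± 2.72) and H2-K1 were neighbours in this order whose difference was within their spread. In 3D WT samples the order was B2m (1858 ± 186), H2-K1 (303 ± 38) and H2-D1 (296 ± 46.5), the last pair within their spread, followed by Tapbp (57 ± 10.7), Psmb10 (18.1 ± 0.915) and Psmb8 (16.1 ± 0.762). In the libraries labelled 3D Cxcl5-/- Psmb8 was last of the 10, at 1.04 ± 0.484 CPM per kb. Levels in separate tables were scaled separately, so differences between tables were not tested. Exon lengths come from GENCODE M21, and the annotation behind the counts may differ.

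**Figure D1:**
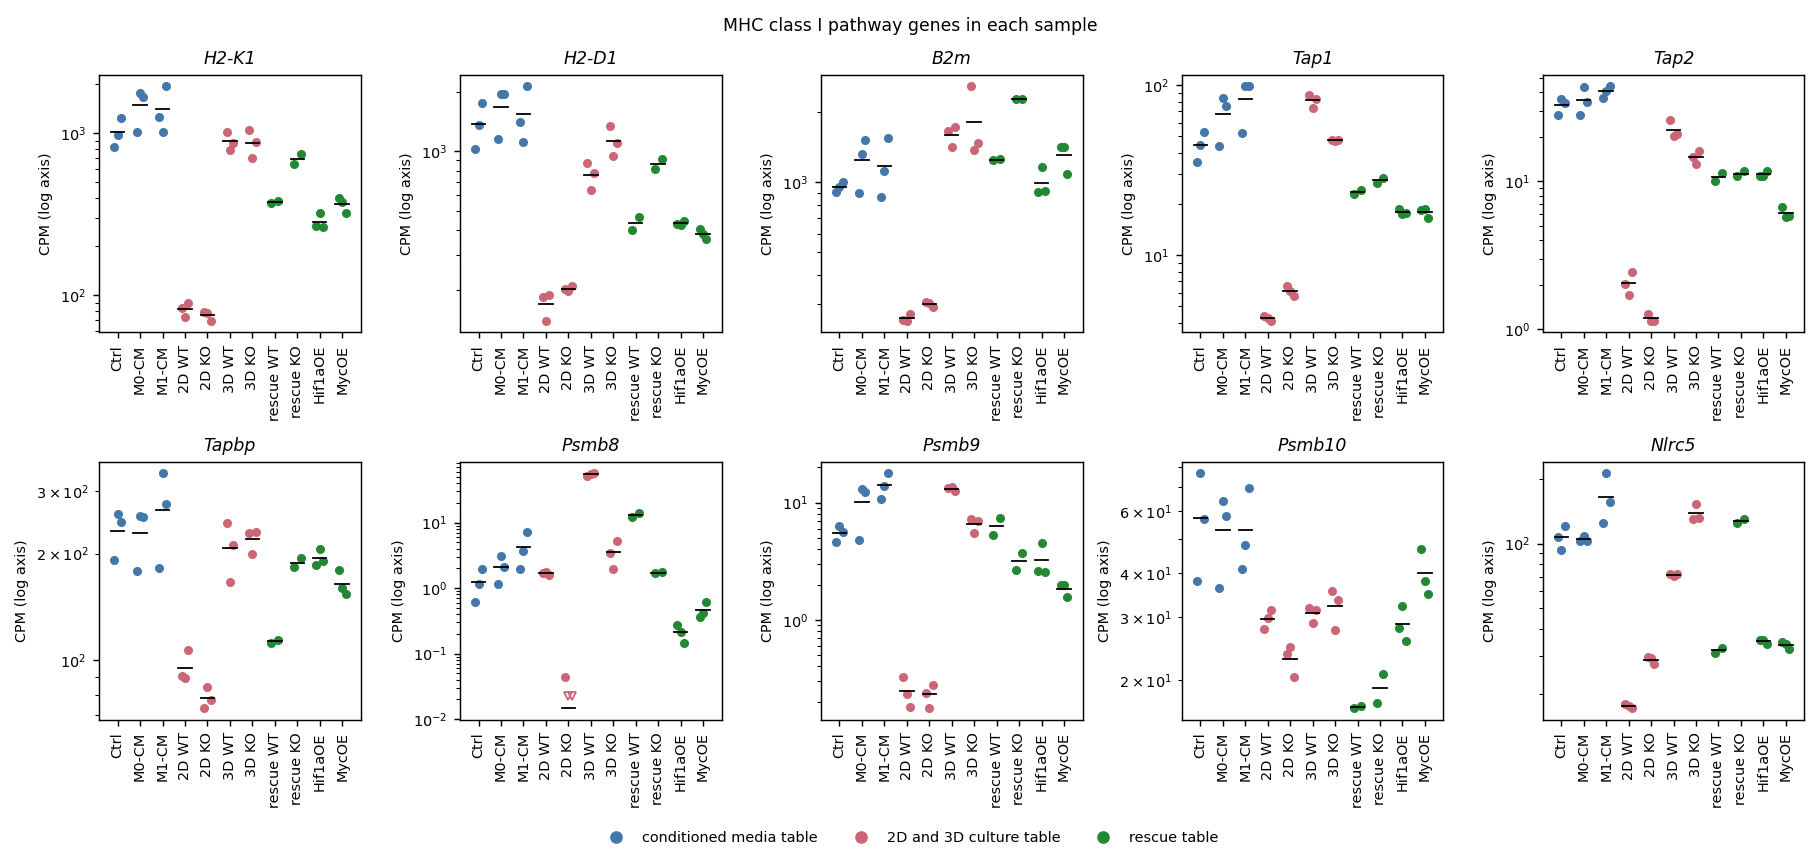
Level of each of the 10 genes in CPM (log axis) in the 31 samples, 1 point per sample, with a bar at the mean of each of the 11 groups and colours for the 3 tables; open triangles stand for libraries at 0 counts. The 2D samples lie lowest for H2-K1, H2-D1, B2m, Tap1, Tap2, Tapbp, Psmb9 and Nlrc5, and Psmb8 spans the widest range, from 0 in 2 of the 2D Cxcl5-/- libraries to 56.3 in a 3D WT library.

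The first comparison asked how the pathway differed between 3D and 2D culture of WT cells. In 3D, 9 of 10 members rose and 0 fell at an adjusted p under 0.05 (edgeR quasi-likelihood test), against 44.3% of all 21367 genes tested called in either direction. The median log2 fold change of the members was 3.03, and that of all genes 0.00. In bulk RNA, a larger share of cells that express a gene and more RNA per cell cannot be told apart. H2-K1, a classical heavy chain, was at 83.6, 73.1 and 89.2 CPM in 2D and at 1011, 792 and 866 in 3D, 10.9-fold higher (log2FC 3.44 with SE 0.15, adjusted p = 1.25e-09). H2-D1, the other classical heavy chain, was at 184, 140.1 and 188 and then at 874, 636 and 781 CPM (log2FC 2.16 with SE 0.15, adjusted p = 9.52e-08). B2m, the light chain they share, went from 254, 253 and 269.6 to 1649.7, 1419 and 1726 CPM, 6.17-fold. For these 3 genes the lowest 3D sample was above the highest 2D sample, and groups did not overlap in 54.3% of all genes tested. Differences in fold between genes were not tested.

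Tap1, which with Tap2 forms the peptide transporter, was at 4.41, 4.27 and 4.12 CPM in 2D WT and 88, 72.8 and 83.3 in 3D WT samples (log2FC 4.25 with SE 0.10, adjusted p = 6.44e-12). Tap2 was at 2.0, 1.7 and 2.43 and 25.8, 20.4 and 20.9 CPM (10.9-fold). Tapbp, the gene of tapasin, rose least of the 9, from 90.5, 89 and 107 to 244, 166 and 211 CPM (log2FC 1.12 ± 0.13, SE). Its groups did not overlap either. Psmb9, which replaces the constitutive subunit Psmb6 and lies next to Tap1, went from 0.327, 0.23 and 0.181 to 13.4, 13.5 and 12.6 CPM and had the highest fold of the set, 54.2 (log2FC 5.76 with SE 0.23, adjusted p = 5.99e-10). Psmb8, which replaces Psmb5, went from 1.7, 1.74 and 1.59 to 51.6, 55.8 and 56.3 CPM (log2FC 5.03 with SE 0.30, adjusted p = 2.32e-08). Psmb10, which replaces Psmb7, was the exception: its samples overlapped, at 27.9, 29.8 and 31.5 CPM in 2D and 31.9, 29 and 31.5 in 3D (log2FC 0.05 ± 0.11, SE, adjusted p = 0.734 by edgeR). Nlrc5, the transactivator, rose from 18, 17.6 and 17.2 to 72, 70.9 and 72.4 CPM, 4.08-fold. Summed macrophage markers were 28.1 to 32.4 CPM in 2D and 42.7 to 47.4 in 3D WT samples, most of it from genes other than Ptprc, Adgre1 and Itgam, fibroblast and mesenchymal markers 2860.2 to 3201 and 3687 to 4241, and epithelial markers 566 to 616 and 868 to 1118. Of the macrophage list 5 of 7 were higher and 0 lower, of the mesenchymal 4 of 8 were higher and 1 lower and of the epithelial 5 of 7 were higher and 2 lower. Their part in the result was not tested. With library totals in place of TMM the median of all genes was -0.21, and 9 members were again higher. Of all genes, 3563 were then called higher and 6712 lower.

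The libraries labelled 3D Cxcl5-/- had all 10 members higher than 2D Cxcl5-/- samples, where 57.0% of all genes were called. The samples of the groups did not overlap for any of the 10, nor for 64.8% of all genes. The median log2 fold change was 2.77 over the members and 0.11 over all genes. H2-K1 went from 79.2, 77.2 and 69.5 to 1038, 697 and 876 CPM (log2FC 3.53 with SE 0.15, adjusted p = 7.33e-10). H2-D1 rose 5.56-fold, B2m 6.06-fold, Tap1 7.7-fold, Tap2 12.3-fold, Tapbp 2.8-fold and Nlrc5 4.79-fold. For B2m the 3D samples spread more widely than elsewhere, at 2580.1, 1371 and 1469 CPM, with replicate 1 well above the other pair. Psmb9 went from 0.237, 0.177 and 0.277 to 7.26, 5.51 and 7.01 CPM. Psmb8 had 3, 0 and 0 counts in the 2D libraries, at or under a floor of 3 counts, and reached 3.39, 1.94 and 5.21 CPM in 3D, at least 75.9-fold higher than 3 counts per library. Its fitted log2 fold change of 7.66 became 10.74 without 2D Cxcl5-/- replicate 1, the library that holds the 3 counts, and depends on how zeros are treated. Psmb10 was also called here, from 23.7, 24.8 and 20.3 to 35.6, 27.7 and 33.7 CPM (log2FC 0.50 with SE 0.11, adjusted p = 0.00133). This rise of 1.41-fold was the lowest of the 10. Marker lists moved with this comparison. Summed macrophage markers were 48.7 to 49.4 CPM in 2D and 44.4 to 65.1 in 3D (4 of 7 higher and 1 lower), mesenchymal markers 1731 to 1942 and 1119.7 to 1271 (6 of 8 higher and 1 lower) and epithelial markers 484 to 519.7 and 258 to 279 (3 of 7 higher and 3 lower). Their part in the result was not tested.

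Between genotypes in 3D the members did not move in one direction: relative to 3D WT, the libraries labelled 3D Cxcl5-/- had 2 members higher and 4 lower, where 45.0% of all genes were called. The 2 that were higher were Nlrc5 and H2-D1. Nlrc5 was at 72, 70.9 and 72.4 CPM in WT and 131, 153 and 132 in the libraries labelled Cxcl5-/- (log2FC 0.95 with SE 0.07, adjusted p = 3.21e-07). H2-D1 was at 1341, 950.0 and 1097 CPM in the libraries labelled Cxcl5-/-, above the WT values already given (log2FC 0.56 with SE 0.15, adjusted p = 0.00634). The 4 that were lower were the peptide supply genes Psmb8, Psmb9, Tap1 and Tap2, the neighbours on chromosome 17. Psmb8 was 54.6 ± 2.58 CPM (mean ± SD, n = 3) in WT and 3.51 ± 1.64 in the libraries labelled Cxcl5-/- (log2FC -3.95 with SE 0.28, adjusted p = 1.46e-07). Psmb9 was 13.2 ± 0.516 against 6.59 ± 0.944 CPM (log2FC -1.0 with SE 0.17, adjusted p = 0.000377). Tap1 was at 47.4, 46.6 and 47.8 CPM in the libraries labelled Cxcl5-/-, below every WT sample (log2FC -0.78 ± 0.08, SE), and Tap2 at 14.5, 13.1 and 16 (log2FC -0.62 ± 0.14, SE). H2-K1, B2m, Tapbp and Psmb10 overlapped between the genotypes and were not called, with log2 fold changes between -0.03 and 0.18. This split depends on scaling. With library totals in place of TMM the median of all genes moved from -0.04 to 0.35, and 6 members were then higher and 3 lower. Of all 21367 genes, 7671 were then called higher and 2445 lower, so that all genes leaned to higher as well. H2-K1 turned from -0.03 to 0.34, that is at the median of all genes, B2m, Tapbp and Psmb10 became higher, and Tap2 (-0.23) was no longer called. Nlrc5 and H2-D1 stayed higher and Psmb8, Psmb9 and Tap1 lower under both scalings. Marker lists moved too. Summed pancreatic epithelial markers, those of the labelled cell type, were 868 to 1118 CPM in WT and 258 to 279 in the libraries labelled Cxcl5-/-. Fibroblast and mesenchymal markers, mostly Vim, were 3687 to 4241 and 1119.7 to 1271. Of the mesenchymal markers 3 of 8 were higher and 4 lower, of the epithelial 2 of 7 were higher and 3 lower and of the macrophage 2 of 7 were higher and 0 lower. Their part in the result was not tested.

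In 2D culture, 2 members were higher and 2 lower in Cxcl5-/- than in WT samples, with 7.03% of all genes called. Psmb8 was the extreme case: WT libraries held 88, 121 and 114 counts and Cxcl5-/- libraries 3, 0 and 0, so that Psmb8 was at least 36.1-fold lower, taking 3 counts per library as the floor. Its fitted log2 fold change of -6.58 (adjusted p = 9.88e-06 by edgeR) became -9.64 without 2D Cxcl5-/- replicate 1. Nlrc5 was higher, at 29.7, 29.5 and 27.5 against 18, 17.6 and 17.2 CPM (log2FC 0.72 with SE 0.08, adjusted p = 3.32e-05). Tap1 was higher here, at 6.55, 6.15 and 5.72 against 4.41, 4.27 and 4.12 CPM (log2FC 0.53 with SE 0.09, adjusted p = 0.0025), the opposite of its direction in 3D. Tap2 was lower, at 1.26, 1.14 and 1.14 against 2.0, 1.7 and 2.43 CPM (log2FC -0.79 with SE 0.16, adjusted p = 0.00782). The call for Tap2 was lost without 2D WT replicate 3 (adjusted p = 0.0549) or 2D Cxcl5-/- replicate 3 (0.0509). The remaining 6 were not called. Of these, H2-D1, B2m, Tapbp and Psmb10 had groups that did not overlap, as did 26.1% of all genes, with log2 fold changes of 0.25, 0.20, -0.29 and -0.37. Psmb10 (adjusted p = 0.0528) passed the threshold without 3D Cxcl5-/- replicate 1 (0.048) or 2 (0.0449), which enter only through the shared estimate of the spread. Summed mesenchymal markers were 2860.2 to 3201 CPM in WT and 1731 to 1942 in Cxcl5-/- samples (1 of 8 higher and 3 lower), epithelial markers 566 to 616 and 484 to 519.7 (2 of 7 higher and 2 lower) and macrophage markers 28.1 to 32.4 and 48.7 to 49.4 (2 of 7 higher and 0 lower). Their part was not tested.

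**Figure D2:**
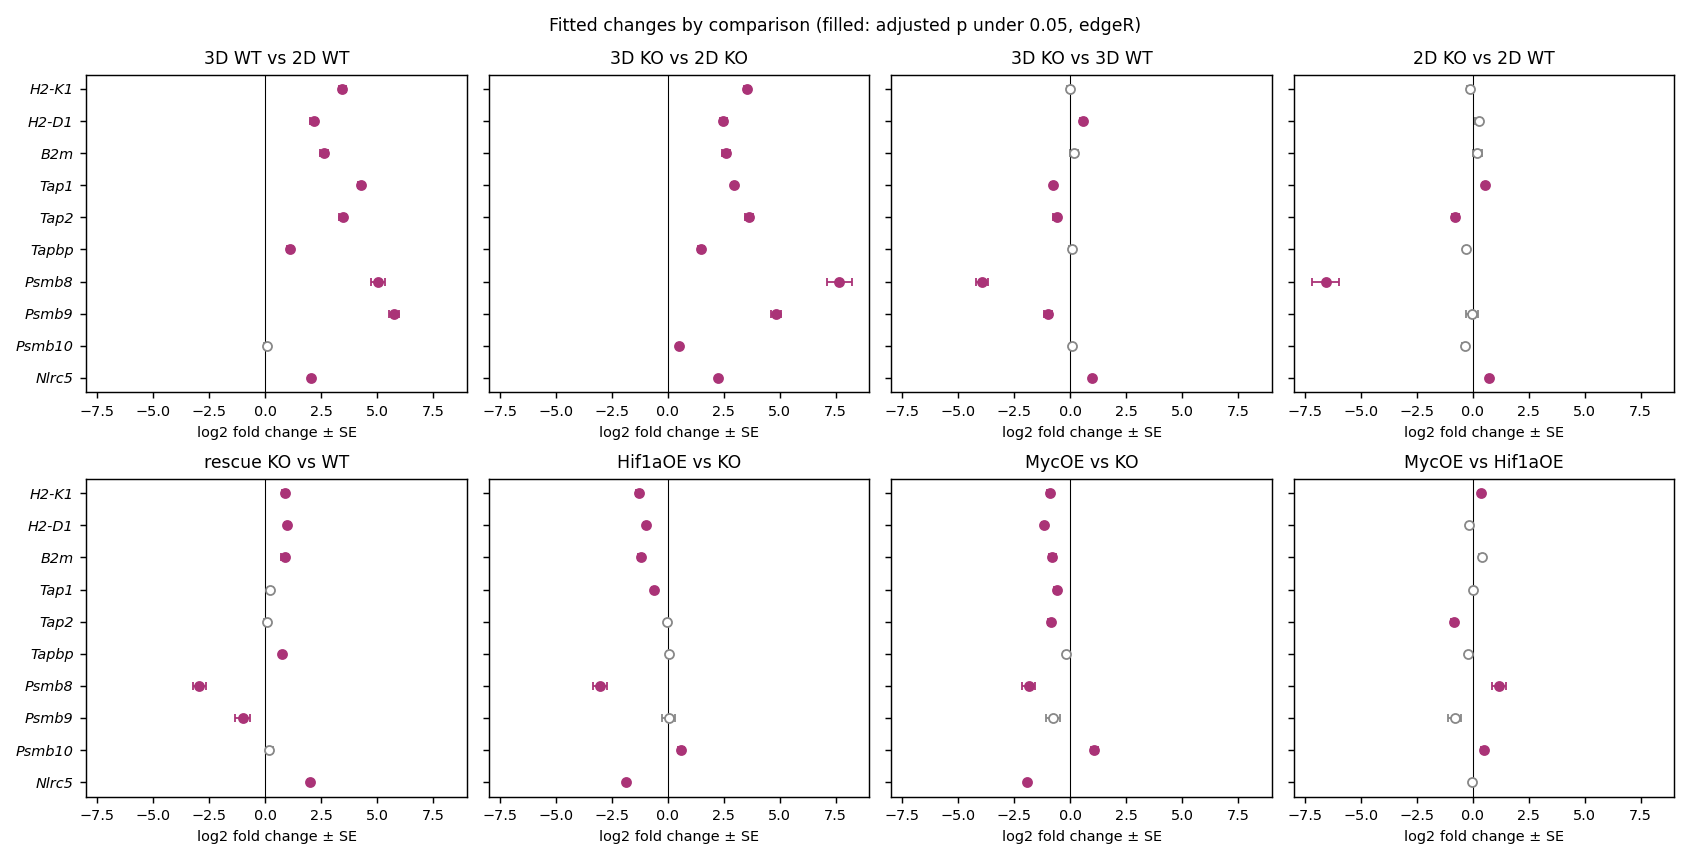
Fitted log2 fold change (x axis, with SE bars) of each gene in 8 comparisons by edgeR, the first group named over the second; filled points have an adjusted p under 0.05. Points for 3D over 2D lie to the right of 0, whereas those for Psmb8 lie to the left in every comparison of Cxcl5-/- with WT and in both comparisons of overexpressing with Cxcl5-/- cells.

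Whether the gap between genotypes was the same in 3D and 2D culture was tested directly. The difference between the gaps passed the threshold for 4 members, with 27.2% of all genes called. Tap1 had the clearest difference (log2FC -1.31 with SE 0.12, adjusted p = 9.42e-06), being higher under the Cxcl5-/- label in 2D and lower under that label in 3D. Psmb9 also had a negative difference (-0.94 ± 0.32 on the log2 scale, SE, adjusted p = 0.0454), and Psmb8 (2.63 ± 0.89, adjusted p = 0.0425) and Psmb10 (0.45 ± 0.15, adjusted p = 0.0433) positive differences, the fitted Psmb8 difference again resting on libraries at 0. When each of the 12 libraries was left out in turn, Tap1 kept its call every time, while Psmb8 lost it 9 times, Psmb9 9 times and Psmb10 11 times, and B2m gained a call (-0.42, adjusted p = 0.0143) without 3D Cxcl5-/- replicate 1. Without 2D Cxcl5-/- replicate 1 the difference for Psmb8 was 5.74. With library totals 6 members had a higher and 1 a lower difference, against a median of all genes of 0.32. Of all 21367 genes, 4585 then had a higher and 1359 a lower difference.

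The immunoproteasome subunits were then set against the constitutive subunits they replace, as the ratio of the CPM values within a sample. These ratios are not corrected for length, and their changes were not tested. Psmb8 was 2.0%, 2.11% and 1.51% of Psmb5 in 2D WT samples and 89.9%, 94.2% and 114% in 3D WT samples, so that the pair reached similar CPM. In the libraries labelled 3D Cxcl5-/- it was 6.6%, 4.7% and 10.8%, and in 2D Cxcl5-/- at most 0.0567%. Psmb9 against Psmb6 went from 0.118% to 0.236% in 2D WT to 13% to 14.2% in 3D WT samples, and from 0.144% to 0.234% to 9.39% to 11.2% in Cxcl5-/- samples. Psmb10 against Psmb7 went from 11.8% to 13.5% to 22.9% to 32% in WT samples while Psmb10 itself was not called. Psmb5, Psmb6 and Psmb7 were all lower in 3D than in 2D WT samples (log2 fold changes -0.71, -0.53 and -1.06) and in Cxcl5-/- samples (-0.80, -0.96 and -1.24), each at an adjusted p under 0.05. In the rescue table Psmb8 was 29.6% and 34.3% of Psmb5 in WT, 6.78% and 5.79% in Cxcl5-/-, 0.265% to 0.473% in Hif1aOE and 0.465% to 0.967% in MycOE samples.

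**Figure D3:**
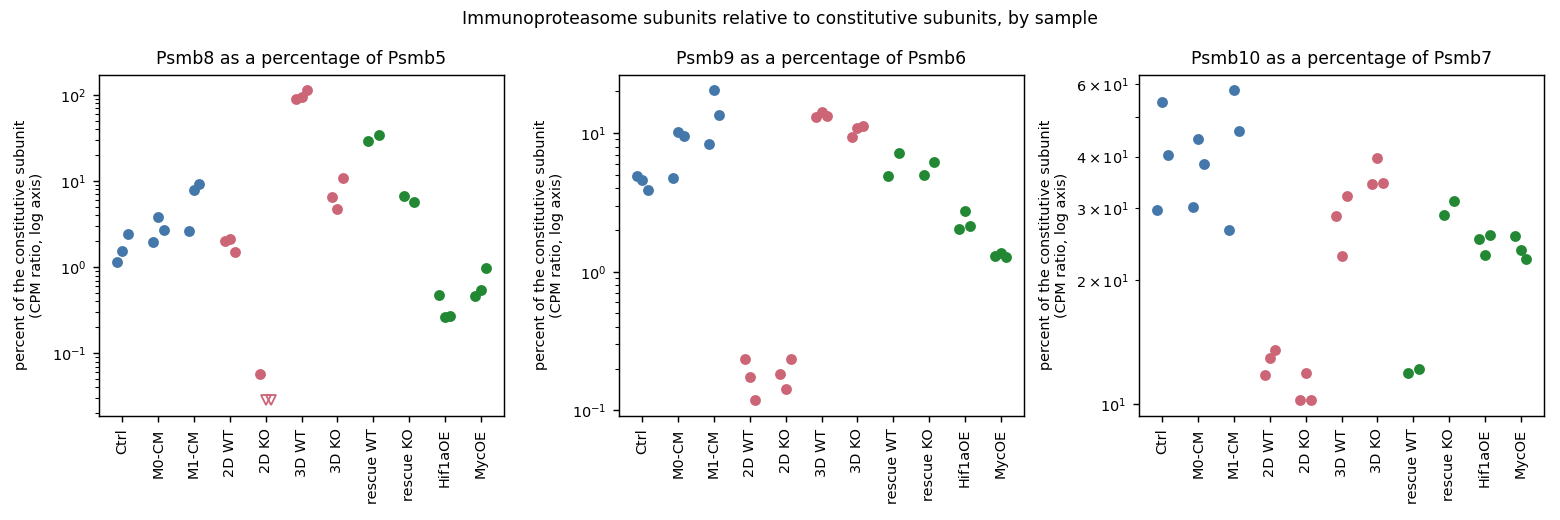
CPM of Psmb8, Psmb9 and Psmb10 as a percentage of the CPM of the constitutive subunits Psmb5, Psmb6 and Psmb7 (log axis), 1 point per sample; open triangles stand for libraries without a Psmb8 count. Psmb8 reaches 89.9% to 114% of Psmb5 in 3D WT samples and stays under 1% in the 2D Cxcl5-/-, Hif1aOE and MycOE samples.

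The rescue experiment held a separate set of 3D WT and Cxcl5-/- samples, with 2 of each. There 5 members were higher and 2 lower in Cxcl5-/- samples, with 41.9% of all genes called and a median over all genes of -0.30. Nlrc5 rose the most, from 31.1 and 32.8 to 125 and 131 CPM (log2FC 2.00 with SE 0.08, adjusted p = 6.33e-08). H2-K1 was at 369 and 383 CPM in WT and 643 and 743 in Cxcl5-/- samples (log2FC 0.88 with SE 0.13, adjusted p = 0.00029). H2-D1 was at 403 and 467 and 812 and 911 CPM (1.98-fold). B2m was at 1242 and 1252 and 2264 and 2278 CPM (1.82-fold), and Tapbp at 112 and 114 and 183 and 194 (1.67-fold). All 4 thus lay higher in each Cxcl5-/- sample than in each WT sample, where groups of 2 did not overlap for 80.9% of all genes. In the second table Nlrc5 and H2-D1 were also the members called higher under the 3D Cxcl5-/- label. Psmb8 was lower, at 1.68 and 1.75 against 12.2 and 14.2 CPM (log2FC -2.94 with SE 0.30, adjusted p = 1.87e-05). Psmb9 was at 2.64 and 3.7 against 5.29 and 7.43 CPM (log2FC -1.01 with SE 0.33, adjusted p = 0.032). The call for Psmb9 was lost without rescue WT replicate 2 (adjusted p = 0.187), rescue Cxcl5-/- replicate 1 (0.187) or replicate 2 (0.0535). Tap1, Tap2 and Psmb10 were not called, at log2 fold changes of 0.23, 0.08 and 0.18. Whether the genotype effect differed between the tables was not tested. The raised T, NK and endothelial marker sums of the WT libraries moved with this comparison (of the T and NK markers 0 of 5 were higher and 2 lower, of the endothelial 0 of 4 were higher and 3 lower and of the macrophage 2 of 10 were higher and 5 lower in Cxcl5-/- samples), as did the mesenchymal markers (3411 to 3439 CPM in WT, 1051 to 1063 in Cxcl5-/- samples, 6 of 9 higher and 1 lower) and the epithelial markers (874 to 919 and 328 to 343 CPM, 1 of 8 higher and 3 lower). Their part was not tested.

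Overexpression of mutant Hif1a in Cxcl5-/- cells went with lower levels of the heavy chains, B2m and Nlrc5. Against Cxcl5-/- samples 1 member was higher and 6 lower in Hif1aOE samples, with 35.5% of all genes called and a median of all genes of 0.16. Nlrc5 fell to 35.6, 35.6 and 34.3 CPM (log2FC -1.86 with SE 0.07, adjusted p = 4.86e-08), beside 31.1 and 32.8 in WT samples. H2-K1 fell to 268, 319.8 and 264 CPM (log2FC -1.29 with SE 0.12, adjusted p = 8.76e-06), beside 369 and 383 in WT samples. Overexpressing and WT samples were not tested against each other. H2-D1 fell to 431, 424 and 448 CPM (0.504 of the Cxcl5-/- level) and B2m to 901, 1161 and 913 (0.437 of it). Tap1 fell to 18.8, 17.4 and 17.7 CPM from 26.5 and 28.5 (log2FC -0.61 ± 0.09, SE). Psmb8, already low in Cxcl5-/- samples, fell further to 0.275, 0.21 and 0.145 CPM, 14, 12 and 8 counts (log2FC -3.02 with SE 0.30, adjusted p = 1.82e-05). Psmb10 was the member that rose, from 17.2 and 20.8 to 28, 32.4 and 25.8 CPM (log2FC 0.60 with SE 0.14, adjusted p = 0.00654), a call lost without rescue Cxcl5-/- replicate 1 (0.48, adjusted p = 0.0815). The constitutive subunits Psmb5, Psmb6 and Psmb7 rose too (log2 fold changes 1.20, 1.29 and 0.89). Psmb10 was 23.1% to 25.8% of Psmb7, against 28.9% to 31.2% in Cxcl5-/- samples. Psmb9 was 2.03% to 2.73% of Psmb6, against 4.99% to 6.17%. Changes of these ratios were not tested. Tap2, Tapbp and Psmb9 were not called, at log2 fold changes of -0.02, 0.04 and 0.03.

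MycOE samples, compared with the same Cxcl5-/- samples, had 1 member higher and 7 lower, with 39.6% of all genes called and a median of all genes of 0.11. Nlrc5 was at 34.9, 34.1 and 32.4 CPM (log2FC -1.92 with SE 0.07, adjusted p = 2.51e-08). H2-D1 was at 408, 384 and 361 CPM (log2FC -1.16 with SE 0.10, adjusted p = 2.88e-06), H2-K1 at 396, 376 and 322 and B2m at 1417, 1410.1 and 1082, each below both Cxcl5-/- samples. Tap1 was at 18.5, 18.8 and 16.5 CPM (log2FC -0.62 ± 0.09, SE). Tap2 fell as well, from 10.8 and 11.7 to 6.75, 5.74 and 5.83 CPM (log2FC -0.88 with SE 0.13, adjusted p = 0.000187). Psmb8 was at 0.36, 0.413 and 0.617 CPM (log2FC -1.87 with SE 0.28, adjusted p = 0.000263). Psmb10 rose to 46.7, 38.1 and 35.1 CPM, 2.1-fold (log2FC 1.07 with SE 0.14, adjusted p = 0.000113), and its constitutive partner Psmb7 rose too (log2 fold change 1.40), so that Psmb10 was 22.6% to 25.6% of Psmb7 against 28.9% to 31.2% in Cxcl5-/- samples. With library totals the median of all genes was -0.11, and 1 member was higher and 9 lower. Of all 28730 genes, 4271 were then called higher and 7482 lower. Tapbp and Psmb9 were not called with TMM (log2 fold changes -0.20 and -0.78). Both were called by the DESeq2 Wald test and with library totals, Psmb9 also without Hif1aOE replicate 2 (adjusted p = 0.0273) and Tapbp without MycOE replicate 1 (-0.26, 0.0354). The comparisons of rescue WT, Hif1aOE and MycOE with Cxcl5-/- samples all share the same 2 Cxcl5-/- samples, so they are not separate observations. Summed mesenchymal markers were 1051 to 1063 CPM in Cxcl5-/-, 875 to 979.5 in Hif1aOE and 1374 to 1445 in MycOE samples, and epithelial markers 328 to 343, 736 to 863 and 298 to 347. Against Cxcl5-/- samples the mesenchymal list had 1 of 9 higher and 6 lower in Hif1aOE and 2 of 9 higher and 3 lower in MycOE samples, and the epithelial list 4 of 8 higher and 2 lower and 2 of 8 higher and 0 lower. Summed macrophage markers were 35.5 to 36.1 CPM in Cxcl5-/-, 45.8 to 65.2 in Hif1aOE and 60 to 77.4 in MycOE samples. Of the macrophage markers 2 of 10 were higher and 0 lower in Hif1aOE, and 2 of 10 higher and 2 lower in MycOE samples. Their part was not tested.

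Set directly against each other, MycOE samples had 3 members higher and 1 lower than Hif1aOE samples, with 19.3% of all genes called. Tap2 was lower in MycOE samples (log2FC -0.87 with SE 0.12, adjusted p = 0.000321). Psmb8 was higher (log2FC 1.15 with SE 0.31, adjusted p = 0.0218) on few counts, Psmb10 was higher (log2FC 0.48 with SE 0.12, adjusted p = 0.02) and H2-K1 was higher (log2FC 0.36 with SE 0.11, adjusted p = 0.0336). None of these 3 calls held against each left-out library. H2-K1 lost its call without Hif1aOE replicate 1 (adjusted p = 0.121) or 3 (0.106) or MycOE replicate 1 (0.12) or 2 (0.101). Psmb10 lost it without Hif1aOE replicate 1 (0.0699) or 3 (0.0762) or MycOE replicate 1 (0.079), and Psmb8 without Hif1aOE replicate 3 (0.0766) or MycOE replicate 3 (0.0838). In the other direction B2m passed without Hif1aOE replicate 2 (0.52, 0.00803) or MycOE replicate 3 (0.51, 0.0125), and Tapbp without MycOE replicate 1 (-0.31, 0.0226). With library totals the split was 2 higher and 3 lower, against a median of all genes of -0.13. Of all 28730 genes, 1982 were then called higher and 3504 lower. Nlrc5 (log2FC -0.06 ± 0.07, SE) and Tap1 (0.00 ± 0.09) were not called and their samples overlapped.

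No member passed the threshold between conditioned media. With M1-CM against Ctrl, 0 of 10 members were called, with 0.0156% of the 19207 genes called. By DESeq2 the count was also 0 (0.506% of the 19167 genes it gave an adjusted p), and 4 members had an unadjusted p under 0.05 by edgeR (4.70% of all genes). These were Nlrc5, Psmb9, Psmb8 and Tap1. Psmb9 was at 4.58, 6.31 and 5.59 CPM in Ctrl and 10.7, 13.8 and 17.8 with M1-CM (log2FC 1.36 ± 0.36, SE, adjusted p = 0.71). Its groups did not overlap, as for 8.49% of all genes. Psmb8 was at 0.613, 1.17 and 1.97 and 1.97, 3.69 and 7.17 CPM (log2FC 1.77 ± 0.59, adjusted p = 0.965), and Nlrc5 at 107, 93.3 and 121 and 125, 212 and 156 (log2FC 0.62 ± 0.19, adjusted p = 0.956). The heavy chains and B2m varied widely within groups, H2-K1 from 818 to 1232 CPM in Ctrl and from 1023 to 1947 with M1-CM. Against M0-CM, 0 members were called (0.0156% of all genes), 0 by DESeq2 (0.167%), and 1, Nlrc5, had an unadjusted p under 0.05 (2.59% of all genes), at log2FC 0.65 ± 0.19. M0-CM against Ctrl gave 0 as well (0% of all genes), 0 by DESeq2 (0.0887%), with 1, Psmb9, at an unadjusted p under 0.05 (2.96% of all genes) and log2FC 0.87 ± 0.36. The 3 media comparisons share samples. In the same spheroids Cxcl5 rose from 78.1, 117 and 107 to 663, 719 and 662 CPM with M1-CM. An SE of 0.59 for Psmb8 and of 0.29 for H2-K1 sets what this comparison could show.

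Other genes of the pathway were followed through lists, whose counts stand against shares of all genes called of 44.3% for 3D against 2D WT, 57.0% for 3D against 2D Cxcl5-/-, 41.9% for rescue Cxcl5-/- against WT, 35.5% for Hif1aOE and 39.6% for MycOE against Cxcl5-/- samples. Of the non-classical and other class I heavy chains, such as H2-T23, H2-Q and H2-M genes, 12 of 14 were higher and 0 lower in 3D than in 2D WT samples, and 14 of 14 were higher and 0 lower in Cxcl5-/- samples. Many of these genes are near copies of each other, so values of single genes are uncertain. Among those named by rule, Mr1, which presents vitamin B metabolites, rose from 0.0185 to 2.43 CPM in WT and stood at 13.3 in the libraries labelled 3D Cxcl5-/- (log2FC 2.45 with SE 0.34, adjusted p = 5.31e-05). H2-Q4 went from 2.12 to 79 CPM in Cxcl5-/- cells (log2FC 5.21 with SE 0.18, adjusted p = 3.13e-10). In Hif1aOE and MycOE samples this list had 0 of 16 higher and 9 lower and 1 of 16 higher and 10 lower than in Cxcl5-/- samples, and H2-Q4 was at 89.2 CPM in Cxcl5-/-, 12.8 in Hif1aOE and 12.9 in MycOE samples. In rescue Cxcl5-/- against WT samples it had 10 of 16 higher and 3 lower.

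Genes that supply, trim and load peptides outside the core set did not rise together in 3D: 4 of 16 were higher and 7 lower in WT (44.3% of all genes called) and 6 of 16 were higher and 7 lower in Cxcl5-/- samples (57.0%). Psme3, a proteasome activator, fell in WT (log2 fold change -0.68), and Lnpep, an aminopeptidase, rose (0.67). Tapbpl, a relative of tapasin, rose in Cxcl5-/- cells (1.40). Of the class I and class II transcription factors, 8 of 17 were higher and 3 lower in 3D WT samples and 9 of 17 were higher and 4 lower in Cxcl5-/- samples, against the same shares. Irf9, which takes part in type I interferon signalling, averaged 11.5 CPM in 2D and 47.7 in 3D WT samples (log2FC 2.05 with SE 0.13, adjusted p = 2.77e-08). Irf1, an activator of class I and immunoproteasome genes, averaged 70.1 CPM in 3D WT and 39.7 in the libraries labelled 3D Cxcl5-/- (log2FC -0.82 with SE 0.11, adjusted p = 2.88e-05), and was higher in MycOE (62 CPM) than in Hif1aOE samples (33.7). Rfx5, a subunit of the RFX complex, averaged 11.9 CPM in rescue WT and 21.8 in Cxcl5-/- samples (log2FC 0.87 with SE 0.13, adjusted p = 0.000352).

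Interferon-stimulated genes gave 23 of 24 higher and 1 lower in 3D WT and 23 of 24 higher and 1 lower in Cxcl5-/- samples, with medians of 4.33 and 4.39 and 44.3% and 57.0% of all genes called. Iigp1, an IFNγ-induced GTPase, averaged 0.389 CPM in 2D and 23.3 in 3D WT samples, and Usp18, a feedback inhibitor of the type I interferon receptor kept in a separate list of receptors and feedback genes, 0.773 and 28.3. In Hif1aOE samples this list had 11 of 24 higher and 3 lower than in Cxcl5-/- samples (median 0.64, 35.5% of all genes called), where the class I members had 1 higher and 6 lower, and the difference between the lists was not tested. In MycOE samples it had 4 of 24 higher and 9 lower (median -0.47, 39.6% of all genes called), with Gbp2 at 28.7 CPM in Cxcl5-/- and 8.83 in MycOE samples. Ifih1, a sensor of double-stranded RNA, had 0.788 CPM in 2D WT and 0 in 2D Cxcl5-/- samples, 18.6 in 3D WT and 2.31 in the libraries labelled 3D Cxcl5-/- (log2FC -3.01 with SE 0.25, adjusted p = 1.88e-06). MHC class II genes passed the filter in 4 of 10 cases in the culture table, and 2 were higher in 3D WT samples, H2-DMb1 at 10.3 CPM from 1.08 and H2-DMb2 at 0.532 from 0. Of the natural killer ligands, which signal to cells that watch for lost class I, the libraries labelled 3D Cxcl5-/- had 0 of 6 higher and 5 lower relative to 3D WT (45.0% of all genes called): Pvr averaged 176 CPM in WT and 46.4 in those libraries (log2FC -1.92 with SE 0.10, adjusted p = 1.19e-08) and Raet1e 38.1 and 10.6.

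**Figure D4:**
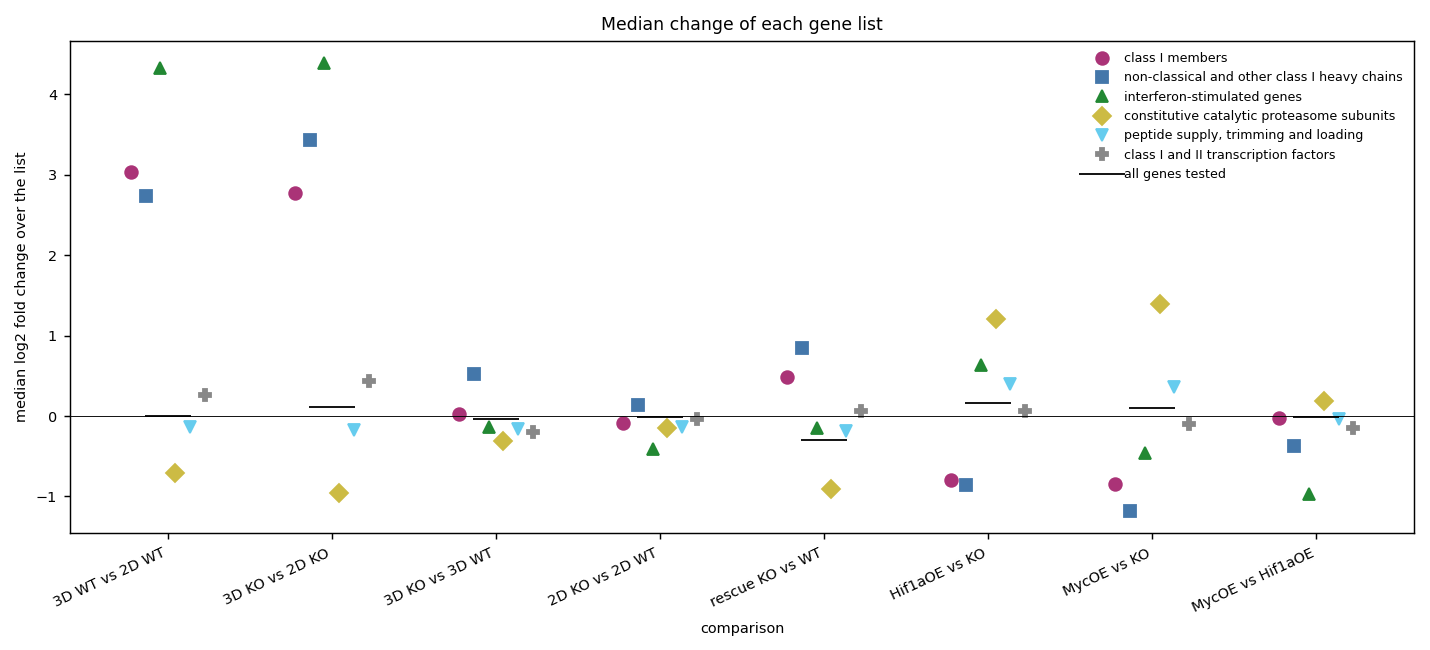
Median log2 fold change (y axis) of 6 gene lists in 8 comparisons (x axis), with a black bar at the median of all genes tested. Class I members, non-classical heavy chains and interferon-stimulated genes lie well above 0 for 3D over 2D culture in both genotypes, while the constitutive proteasome subunits lie below it; in Hif1aOE against Cxcl5-/- samples interferon-stimulated genes lie above 0 and class I members below.

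Over the 31 samples, centred within each table, H2-K1 (Pearson r 0.97), Tap2 (0.96), Tap1 (0.96), Psmb9 (0.96) and B2m (0.94) followed the mean of the other members most closely, while Psmb10 (0.15) did not follow it, with Psmb8 (0.70) and Nlrc5 (0.74) between. The samples of a group share a condition and are not independent points, so these are descriptions without a test. Outside the set, of 12895 genes with a mean of at least 1 CPM in each table, those most like the mean of the members were H2-T23 (r 0.97), a non-classical class I heavy chain, Ifi203 (0.97), Zbp1 (0.96), Iigp1 (0.96) and Tor3a (0.96).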

How the data were processed

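Total RNA was sequenced from 31 samples of Panc02 cells as stranded paired-end libraries. In the rescue samples the number in the cell line label counts up from sample to sample. It was read as a fill error for Panc02, the line the paper names. The authors aligned reads to GRCm38 with HISAT2, assembled them and counted reads per transcript with StringTie, and deposited raw read counts per gene, as whole numbers, in 3 tables, which were used as deposited; the annotation release, strand setting and step from transcripts to genes are not given in the sources used here. Each table was tested on its own with all its groups in 1 fit: genes were kept by filterByExpr and tested with the quasi-likelihood test of edgeR 4.0.16 (R 4.3.3) with TMM scaling, log2 fold changes being the first group over the second and SE the estimate divided by the square root of F. P-values were adjusted by Benjamini-Hochberg over all genes tested, with a threshold of 0.05. The scripts were tested on simulated data. A floor of 3 counts per library stands for 0 in bounds, and levels cover counting error and sample spread only. The alternatives were DESeq2 1.42.0, its size factors, library totals, no filter, only the groups compared, a replicate block, rows of a symbol summed and each sample left out. Genes outside the set were named as the up to 3 largest called changes without overlap per list and comparison, beside the genes targeted or overexpressed and the constitutive subunits Psmb5, Psmb6 and Psmb7. The members and lists were chosen with earlier results of these data known. Total counts per sample ran from 43875429 to 78498230 in the media table, 46973008 to 72361685 in the culture table and 41542533 to 64872036 in the rescue table. A result on 1 further gene is not reported here.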

Additional observations from a re-analysis of the deposited data

Results flagged for a closer look

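The effect of the Cxcl5-/- label on 4 members differed between 3D and 2D culture by the test of that difference (edgeR). The same test called 27.2% of all genes. On the log2 scale the difference of the effects was -1.31 for Tap1 (adjusted p = 9.42e-06), 2.63 for Psmb8 (adjusted p = 0.0425), -0.94 for Psmb9 (adjusted p = 0.0454) and 0.45 for Psmb10 (adjusted p = 0.0433). The value of Psmb8 rests on 2D Cxcl5-/- libraries with 3, 0 and 0 counts. The 3 calls other than Tap1 were each lost on leaving out most of the single libraries. With groups of 2 or 3 samples, single samples far from the others of their group were not searched for.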

How the results depend on the processing

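Of the counts of called members, 82 of 86 values under the other settings and 115 of 127 with a sample left out stayed within 1.5 times the reported count. These totals include the 3 media comparisons, whose reported count of 0 stayed 0 throughout and so raises the share counted as unchanged. For the genotype by culture difference the reported count of 4 became 7 with library totals and 2 without the filter on low counts, and ranged from 1 to 3 with a sample left out. For MycOE against Hif1aOE the reported 4 became 7 by the DESeq2 Wald test and 2 without the filter, and ranged from 1 to 5 with a sample left out. With library totals H2-K1 in 3D Cxcl5-/- against 3D WT reversed to 0.34 (adjusted p = 0.0182), where the median of all genes also moved, to 0.35. The cause of the other changes was not tested. With the replicate number as a block the counts were 3 for the genotype by culture difference and 6 for MycOE against Hif1aOE, and no other count changed. Samples of the same number did not deviate together (mean r 0.037 in the media, 0.025 in the culture and 0.0041 in the rescue table, with negative values among the pairs in each), so the numbers were not taken to pair samples. Of the log2 fold changes, 777 under the other settings kept direction and call, 25 became called and 10 lost the call. A further 17 changed sign without a call in either fit, and 1, that of H2-K1 given above, changed sign and became called. Of the mean levels of members in groups, 36 moved by more than 1 SD with library totals in place of TMM, and 74 did not. B2m in rescue Cxcl5-/- samples went from 2271 to 2569 CPM, and Psmb8 in 3D WT samples from 54.6 to 47.2. Depth limits Psmb8 most, with at most 3 counts in 2D Cxcl5-/- libraries.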
